A study of Mus musculus with 7 samples.

Results

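Genes that store, translate or remove maternal mRNA were examined in growing mouse oocytes with and without mitofusin 1 (MFN1), a mitochondrial fusion protein. The 10 genes are *Ybx2*, *Zar1*, *Zar1l*, *Lsm14b*, *Patl2*, *Cpeb1*, *Dazl*, *Btg4*, *Cnot6l* and *Zfp36l2*, taken by gene symbol from a table of 22877 genes, and all 10 had a row. RNA was sequenced from 3 *Mfn1*-/- and 4 WT libraries, each made from 5 pooled oocytes of secondary follicles from 8-week-old C57BL/6J females. *Mfn1*-/- stands for *Mfn1* fl/fl mice carrying Cre under the *Zp3* promoter, which is active in oocytes once they grow, so that other ovarian cells keep the gene, and the WT mice were littermates. The series text gives 3 mice per genotype and does not say which mouse each library came from. That number does not match the 4 WT libraries, and whether any of them share a mouse is unknown. In *Mfn1*-/- ovaries the authors counted more secondary follicles of the earliest type and few of the latest. Whether the pooled oocytes were matched for follicle stage is not stated, so stage and genotype cannot be told apart here.

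A growing oocyte transcribes a large stock of mRNA and keeps much of it silent, packed with RNA-binding proteins and with short poly(A) tails, until meiotic maturation. Maturation then awakens selected transcripts by cytoplasmic polyadenylation, and the CCR4-NOT deadenylase shortens the tails of others so that they are degraded. YBX2, ZAR1, ZAR1L, LSM14B and PATL2 belong to the storage side, CPEB1 and DAZL bind 3' UTRs to control translation, and BTG4, CNOT6L and ZFP36L2 act in deadenylation and decay.

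The values are the authors' means of normalized counts, 1 per genotype and gene. No value per library was used, so replicate spread, standard error and depth are unknown here, no p-value was computed, and whether any difference exceeds the spread between libraries was not tested. The scale of the normalized counts is not stated and may or may not include transcript length, so the comparisons made are between genotypes. Sums of markers, minimum means and the ranking of genes by mean do set genes side by side on this scale. They are not read as relative abundance. After 0.1 was added to both means, *Mfn1*-/- was divided by WT and the quotient put on the log2 scale, and a gene is described as past 2-fold when this log2 ratio is above 1 or below -1. Genes with a mean of at least 1 over the 7 libraries, 6226 in all, are called expressed genes, and their median log2 ratio was 0.16. All 10 genes were among them. The libraries were made from poly(A) RNA, so a mean here is a level of polyadenylated transcript, and a smaller share of the 5 oocytes holding a transcript and less of it per oocyte cannot be told apart.

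*Mfn1* itself averaged 0.0577 in *Mfn1*-/- and 0.616 in WT libraries, a log2 ratio of -2.18 and the direction that the labels give. All 12 listed oocyte markers had a row, and their means summed to 4086 in *Mfn1*-/- and to 3674 in WT. The means of all genes summed to 142576 in *Mfn1*-/- and to 130160 in WT. Of the oocyte markers 8 had a higher mean in *Mfn1*-/- oocytes, such as *Gdf9* at 533 and 461, and 4 a lower one, such as *Bmp15* at 158 and 181. Among all expressed genes 65.4% had a higher mean. By qRT-PCR, scaled to beta-actin, the authors reported both *Gdf9* and *Bmp15* lower in *Mfn1*-/- oocytes, so the direction of *Gdf9* differs here. Of 14 granulosa cell markers 13 had a row, 1 of them (*Inha*) with a mean of at least 1, and they summed to 2.41 and 1.79. *Inha* made up most of these sums (1.87 and 0.954), and the other 12 summed to 0.540 and 0.838, with 3 higher and 9 lower in *Mfn1*-/- oocytes. Each of these 12 was at or below 0.0974 in *Mfn1*-/- and 0.193 in WT oocytes. Theca and stroma markers summed to 0.211 and 0.207 over the 5 of 8 with a row, and endothelial markers to 0.206 and 0.248 over 3 of 4. Of 6 blood and immune markers 2 had a row, *Cd74* at 0.0221 and 0.0164 and *Cd68* at 7.58 in *Mfn1*-/- and 0.672 in WT oocytes, and its part in the results below was not tested.

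*Zfp36l2* stood apart from the other 9 genes. Its mean was 2.43-fold higher in *Mfn1*-/- oocytes on the scale with 0.1 added, whereas the other 9 genes were within 2-fold, between a log2 ratio of -0.50 for *Cnot6l* and 0.30 for *Cpeb1*. Thus 1 of the 10 genes was past 2-fold higher, against 5.44% of the expressed genes, and 0 of the 10 were past 2-fold lower, against 3.24%. Over all 22877 genes, without a minimum mean, these shares were 4.87% and 2.75%. Of the 10 genes, 6 had a lower mean in *Mfn1*-/- oocytes, while 34.2% of expressed genes did. That share depends on the scaling of the 2 genotypes. Against the median of expressed genes, which divides them evenly, 6 of the 10 lay below and 4 above. The median log2 ratio of the 10 was -0.20, beside 0.16 over all expressed genes. By role, 4 of the 5 storage genes had a lower mean, both translational control genes a higher one, and of the 3 decay genes 2 were lower and 1 higher.

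**Figure D1:**
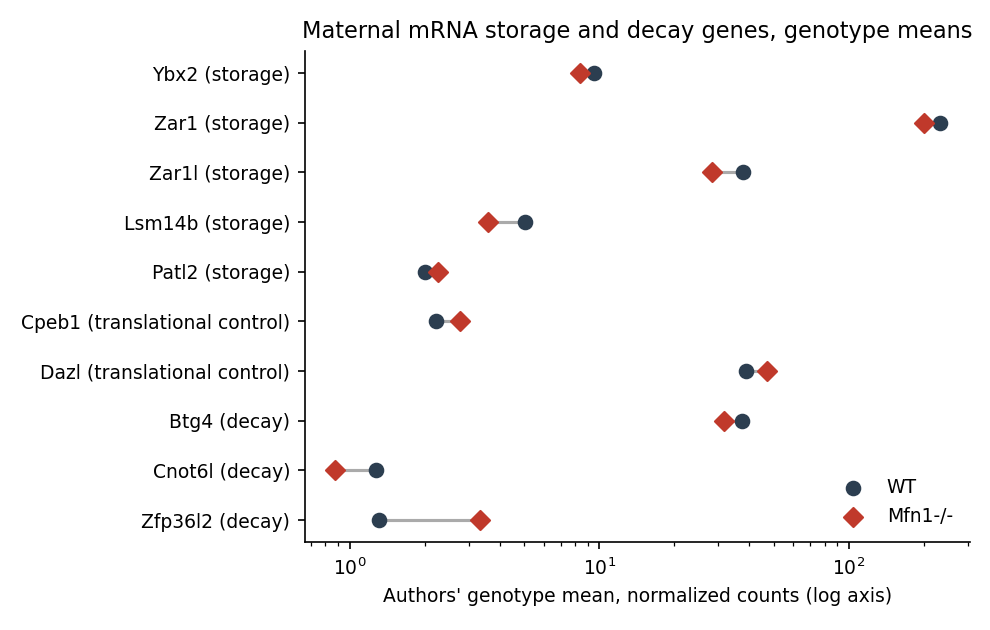
Authors' genotype means of normalized counts (log axis) for the 10 genes, with WT as circles, *Mfn1*-/- as diamonds and a line joining the 2 means of a gene. The diamond lies clearly to the right of the circle for *Zfp36l2* (1.31 in WT and 3.32 in *Mfn1*-/- oocytes), and the pairs of the other genes lie close together. No error bars are drawn because 1 mean per genotype was used.

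Sequences that bear on how these transcripts are themselves handled lie in their 3' UTRs. The cytoplasmic polyadenylation element, bound by CPEB1, was searched as TTTTAT or TTTTAAT, the AU-rich pentamer as ATTTA, the longer AU-rich heptamer bound by ZFP36 proteins as TATTTAT (each copy also holds the pentamer), and the Pumilio motif as TGTANATA. Only the transcript's own strand was read, in the longest coding transcript of each gene in GENCODE M21 (GRCm38). The polyadenylation element was present in 7 of the 10 genes and in 53.9% of the 4520 expressed genes with a 3' UTR of at least 20 bases. The pentamer was present in 8 of the 10 genes and 61.1% of those genes, the heptamer in 4 of 10 and 22.0%, and the Pumilio motif in 3 of 10 and 19.6%. A match is only a match of letters.

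*Zfp36l2*, the gene past 2-fold, held 3 heptamers, 822, 870 and 1056 bases after the stop codon in a 3' UTR of 1822 bases, at chr17:84184913-84184942, chr17:84184865-84184894 and chr17:84184679-84184708 on the minus strand (GRCm38). These are sites of the kind its own protein binds, and they are shown in order from the stop codon with the heptamer in capitals.
Zfp36l2 site 1: actatttaactTATTTATtatcttgtgaaa
Zfp36l2 site 2: tgtccatactgTATTTATcgagtatgatga
Zfp36l2 site 3: attgtatgtaaTATTTATttcattaatttc

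Among genes within 2-fold, the polyadenylation element nearest the transcript end is shown in capitals for *Btg4* and *Ybx2*, where it began 67 and 62 bases before the annotated end, and for *Dazl* and *Cpeb1*, where it began 373 and 249 bases before it. The *Btg4* site lies at chr9:51119797-51119826 and the *Ybx2* site at chr11:69941532-69941561, both on the plus strand, and the *Dazl* site at chr17:50279752-50279781 and the *Cpeb1* site at chr7:81347257-81347286, both on the minus strand. All are exonic, in the 3' UTR. *Dazl* and *Cpeb1* had the poly(A) signal hexamer AATAAA starting 21 and 20 bases before the annotated end. *Btg4* and *Ybx2* had no AATAAA or ATTAAA starting within 50 bases of it, so whether their annotated ends are poly(A) sites was not tested.
Btg4: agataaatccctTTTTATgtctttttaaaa
Ybx2: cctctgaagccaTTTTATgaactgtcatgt
Dazl: aagtcaaaattcTTTTATgtcaccaagtca
Cpeb1: cttgacttttctTTTTAATttaacgattac

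*Btg4* held 5 copies of the polyadenylation element in a 3' UTR of 521 bases, *Dazl* 6 in 1852 bases, *Cpeb1* 4 in 1315 bases, and *Zfp36l2* 4 beside its heptamers. *Cnot6l* held 16 such elements and 28 pentamers in a 3' UTR of 6847 bases. *Zar1*, *Zar1l* and *Patl2* held none of the polyadenylation elements, and the annotated 3' UTR of *Zar1l* is only 14 bases long. The heptamer was found in *Zfp36l2*, *Cnot6l* (3 copies), *Dazl* (2) and *Cpeb1* (1), genes whose log2 ratios ran from the lowest of the 10 to the highest.

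**Figure D2:**
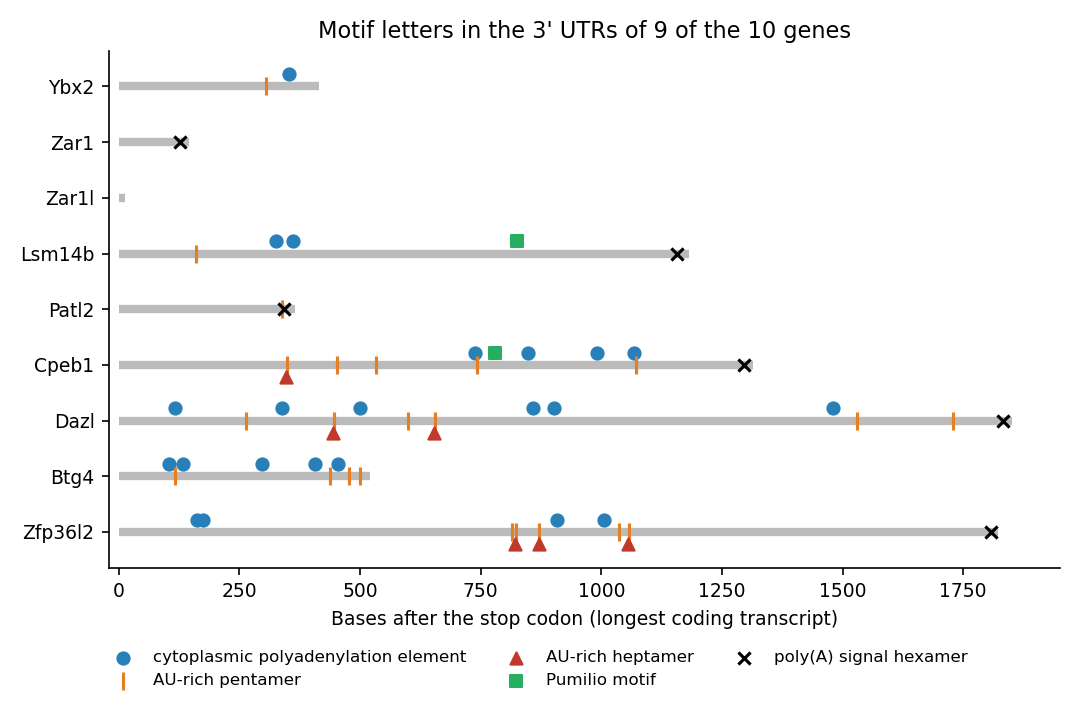
Map of the annotated 3' UTR of 9 of the 10 genes, with bases after the stop codon on the x axis, grey bars for the UTR and markers for each motif match and for the poly(A) signal hexamer (AATAAA or ATTAAA, starting within 50 bases of the end). *Cnot6l* is left out because its 3' UTR of 6847 bases would compress the others. The 3 heptamers of *Zfp36l2* sit together in the middle of the bar.

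In the storage group, *Zar1* and *Zar1l* encode zinc finger proteins of the oocyte that bind mRNA and keep it translationally silent. *Zar1* (chromosome 5, 72576806 to 72581254, minus strand) averaged 200 in *Mfn1*-/- and 231 in WT oocytes, a log2 ratio of -0.21. *Zar1l* (chromosome 5, 150507055 to 150518164, minus strand) had 28.2 and 37.7, a log2 ratio of -0.42. Both were lower in *Mfn1*-/- oocytes by less than 1.5-fold, and 19.4% and 11.3% of expressed genes lay below them. *Zar1* shares 1083 bases at 95.2% identity with the pseudogene *Gm15847*, whose means were 0.448 and 0.758, so the counting could have divided reads between them.

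*Ybx2* (chromosome 11, 69935796 to 69941605) encodes MSY2, an abundant germ cell Y-box protein that stabilises stored mRNA. The *Mfn1*-/- mean was 8.34 and the WT mean 9.55, a log2 ratio of -0.19, close to that of *Zar1*. *Lsm14b* (chromosome 2, 180024987 to 180035465) encodes a component of storage particles that also hold DDX6, and it averaged 3.6 in *Mfn1*-/- and 5.06 in WT oocytes. The log2 ratio of -0.48 left 9.80% of expressed genes below it, the lowest place in the storage group. *Patl2* (chromosome 2, 122120108 to 122186189), an oocyte repressor needed for maturation, was the storage gene with a higher mean, 2.26 in *Mfn1*-/- and 2.01 in WT oocytes. Its log2 ratio of 0.16 equaled the median of expressed genes to 2 decimals.

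CPEB1 holds mRNAs with polyadenylation elements silent until meiotic resumption and then promotes their polyadenylation, and DAZL, a germ cell RRM protein, works on many of the same transcripts. *Cpeb1* (chromosome 7, 81347026 to 81455465) averaged 2.76 in *Mfn1*-/- and 2.22 in WT oocytes, a log2 ratio of 0.30. *Dazl* (chromosome 17, 50279395 to 50293636) had 47 and 38.9, a log2 ratio of 0.27. Both were higher in *Mfn1*-/- oocytes by about the same amount, and after subtracting the median of expressed genes they were 0.14 and 0.11 above it.

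In the decay group, *Btg4* (chromosome 9, 51060901 to 51119875) encodes the adaptor that brings CCR4-NOT to maternal mRNA during maturation. The *Mfn1*-/- mean of 31.6 lay below the WT mean of 37.5, at a log2 ratio of -0.25. *Cnot6l* (chromosome 5, 96070333 to 96164171), a catalytic subunit of the deadenylase in oocytes, had 0.873 and 1.28, a log2 ratio of -0.50, the lowest of the 10 genes, with 9.19% of expressed genes below it. At 1.10 over the libraries, its mean was also the nearest of the 10 to the minimum of 1.

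ZFP36L2 binds AU-rich elements and promotes deadenylation, and it is known to be needed for oocyte maturation and ovulation in mice. The gene (chromosome 17, 84183931 to 84187947, minus strand, 2 exons) averaged 3.32 in *Mfn1*-/- and 1.31 in WT oocytes. The log2 ratio was 1.28, above 97.0% of expressed genes, with 184 of the 6226 higher still. Among the 3444 expressed genes with a mean of 1 to 5, where *Zfp36l2* lies, 7.08% were past 2-fold higher and 3.86% lower. Above that, in the 2782 genes at 5 or more, the shares were 3.41% and 2.48%. Relative to the median expressed gene its log2 ratio was 1.12, and with 1 added in place of 0.1 it was 0.90, under 2-fold. An antisense gene, *AC132455.1*, shares 105 exonic bases with *Zfp36l2*, whose longest coding transcript has 3530. Without knowledge of strand in the counting, reads within the shared bases cannot be told apart. The antisense gene had no row of its own. The other 9 genes share no exonic base with a gene that overlaps them in GENCODE M21.

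**Figure D3:**
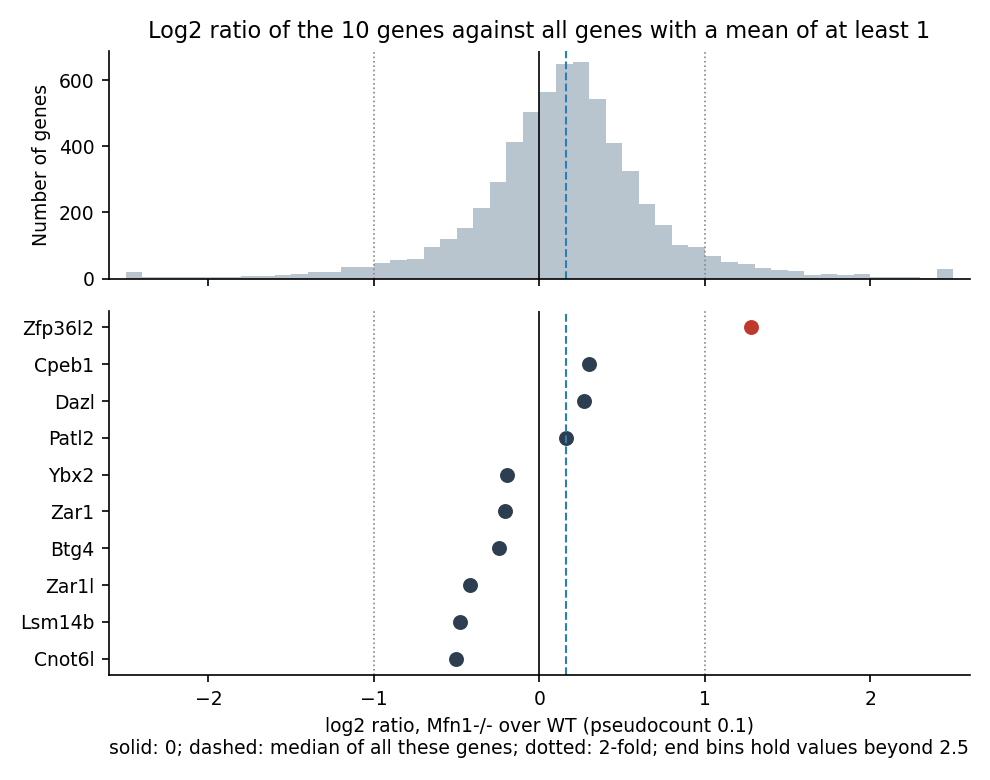
Top, number of expressed genes (6226) by log2 ratio of *Mfn1*-/- over WT in bins of 0.1. Bottom, the log2 ratio of each of the 10 genes on the same axis, with lines at 0, at the median of expressed genes (0.16) and at 2-fold. *Zfp36l2* (1.28) lies past the 2-fold line, and 6 genes lie to the left of 0.

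Most of the 10 genes have paralogs that share their biochemical role, and these were set beside them. Both listed paralogs of *Zfp36l2* with a row had a higher mean in *Mfn1*-/- oocytes, as *Zfp36l2* did. *Zfp36*, which encodes tristetraprolin, had 1.14 in *Mfn1*-/- and 0.4 in WT oocytes, a log2 ratio of 1.31, and *Zfp36l1* had 0.0987 and 0.0295, a log2 ratio of 0.62. Over the 7 libraries the means of both are under 1. *Ybx3* (-0.19) had the same log2 ratio as *Ybx2* to 2 decimals, and *Ybx1* was at 0.10. *Lsm14a* (1.12 in *Mfn1*-/- and 1.4 in WT oocytes, log2 ratio -0.30) was lower, as *Lsm14b* was. *Patl1* had a log2 ratio of 0.29 at means of 0.284 and 0.213, and *Cnot6* one of -0.22 at 0.278 and 0.339. *Btg1* (0.41) and, at means of 0.264 and 0.158, *Btg3* (0.50) were higher in *Mfn1*-/- oocytes, and *Btg2* (-0.37) was lower. *Cpeb2* (0.75) and *Cpeb3* (0.07) were higher and *Cpeb4* (-0.39) was lower, the CPEB genes at means of 0.119 or less in both genotypes.

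The wider pathway was followed in 7 lists of 91 genes without the 10 above, of which 89 had a row and 44 a mean of at least 1. Of these 44, 43 were within 2-fold, 1 (2.27%) was past 2-fold lower and 0 were past 2-fold higher, beside 91.3% within 2-fold, 3.24% lower and 5.44% higher over all expressed genes. The gene past 2-fold was *Pabpn1l*, an oocyte poly(A)-binding protein that works with BTG4 in maternal mRNA decay. *Pabpn1l* (chromosome 8, 122619471 to 122622739, minus strand) averaged 42.2 in *Mfn1*-/- and 99.8 in WT oocytes, a log2 ratio of -1.24 or 2.36-fold lower.

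Among the deadenylases with a mean of at least 1, 4 of 8 had a higher and 4 a lower mean, with a median log2 ratio of -0.07. *Cnot11* was at 11.4 in *Mfn1*-/- and 11 in WT oocytes, whereas *Cnot7*, a catalytic CAF1 subunit, was at 5.33 and 8.38, a log2 ratio of -0.64 and the lowest of the 8. Of the 4 BTG/TOB adaptors 2 were higher and 2 lower, with *Tob1* at -0.32 and *Tob2* at 0.13 on the log2 scale. The storage and repression list had 11 of 12 genes with a lower mean and a median log2 ratio of -0.14, beside 0.16 over all expressed genes. In this list *Nanos2*, which encodes a germ cell repressor that recruits CCR4-NOT, was at 10.9 in *Mfn1*-/- and 16.4 in WT oocytes, and *Ybx3* was at 8.21 and 9.35. *Ybx1*, at a log2 ratio of 0.10, was the 1 gene of the 12 with a higher mean, and it too lay under the median of expressed genes.

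The decapping and decay list had 6 of 9 genes with a higher mean and a median log2 ratio of 0.18, about the level of all expressed genes, of which 65.4% had a higher mean and the median was 0.16. The list includes subunits of the LSm ring that binds deadenylated 3' ends, with *Lsm3* at 43.3 and 38.3, *Lsm2* at 29.1 and 22.6 and *Lsm1* at 17.2 in *Mfn1*-/- and 10.7 in WT oocytes, a log2 ratio of 0.68. The poly(A) binding and polyadenylation list had 4 higher and 3 lower of 7, with a median log2 ratio of 0.11 that turned to -0.05 when the median of expressed genes was taken off, and *Pabpn1* was at 2.94 and 2.61. Of the 4 genes of uridylation and m6A reading with a mean of at least 1, 2 were higher and 2 lower, and the readers *Ythdf2* (0.62) and *Ythdf3* (-0.59) lay on opposite sides of 0. Of the AU-rich element binding list 8 of 9 had a row and 0 a mean of at least 1. From that list *Zfp36* was described above, and *Elavl1*, which encodes the stabilising protein HuR, was at 0.857 in *Mfn1*-/- and 0.525 in WT oocytes.

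**Figure D4:**
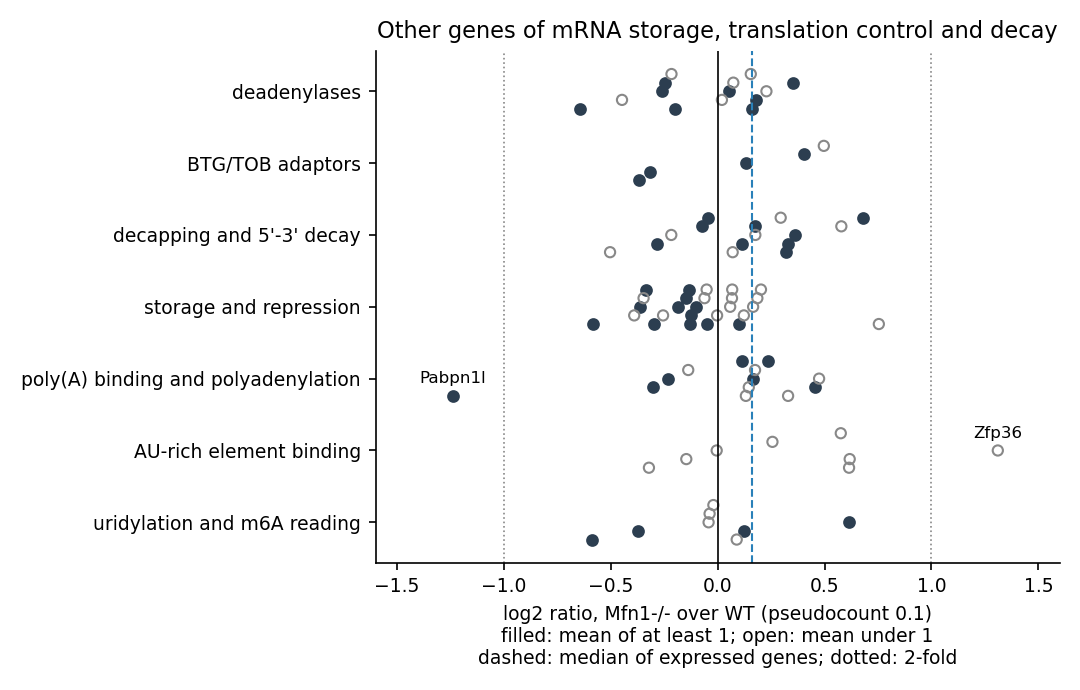
Log2 ratio of *Mfn1*-/- over WT for the 89 other pathway genes with a row, by list, with filled points for a mean of at least 1 and open points for lower means. *Pabpn1l* (-1.24) and, at a mean under 1, *Zfp36* (1.31) are the points past the 2-fold lines, and in the storage and repression list 11 of the 12 filled points lie to the left of 0.

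Finally, expressed genes were grouped by the motifs that these proteins bind. This covers the 4520 of 6226 expressed genes with a matched 3' UTR of at least 20 bases, and the others were left out. The 2435 genes with a polyadenylation element in the 3' UTR had a median log2 ratio of 0.10, beside 0.22 in the 2085 without. The values were 0.11 and 0.23 for the AU-rich pentamer, 0.08 and 0.18 for the heptamer, and 0.08 and 0.17 for the Pumilio motif. By number of copies, the median for the polyadenylation element was 0.22 with none, 0.16 with 1, 0.10 with 2 to 3 and 0.03 with 4 or more. For the heptamer these medians were 0.18, 0.10, 0.06 and -0.0019, the last over 42 genes. The median 3' UTR length rose over the same classes, from 341 to 2545 bases for the polyadenylation element and from 554 to 3325.5 for the heptamer. Copies were not compared at equal length, so number of copies and length cannot be told apart here. Past 2-fold higher were 3.37% of genes with and 6.67% of genes without a polyadenylation element, and past 2-fold lower 1.81% and 1.58%. Over the 4520 genes together, 4.89% were past 2-fold higher and 1.70% lower, beside 5.44% and 3.24% of all expressed genes. Genes past 2-fold lower are thus underrepresented in these groups.

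The length and base composition of the 3' UTR moved with the motifs. The median length was 1263 bases with and 341 without a polyadenylation element, and the median GC content 41.6% and 47.6%. Within each of 3 classes of 3' UTR length, the median log2 ratio was lower with the motif than without it for all 4 motifs, by differences of -0.16 to -0.02 in the 12 comparisons. The 4 motifs overlap in letters and share genes, and the differences are small beside the range of single genes (quartiles -0.12 and 0.42 over expressed genes). Length still varied within a class, from 1179 to 122583 bases in the longest. The parts of this remaining length and of base composition were not tested.

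**Figure D5:**
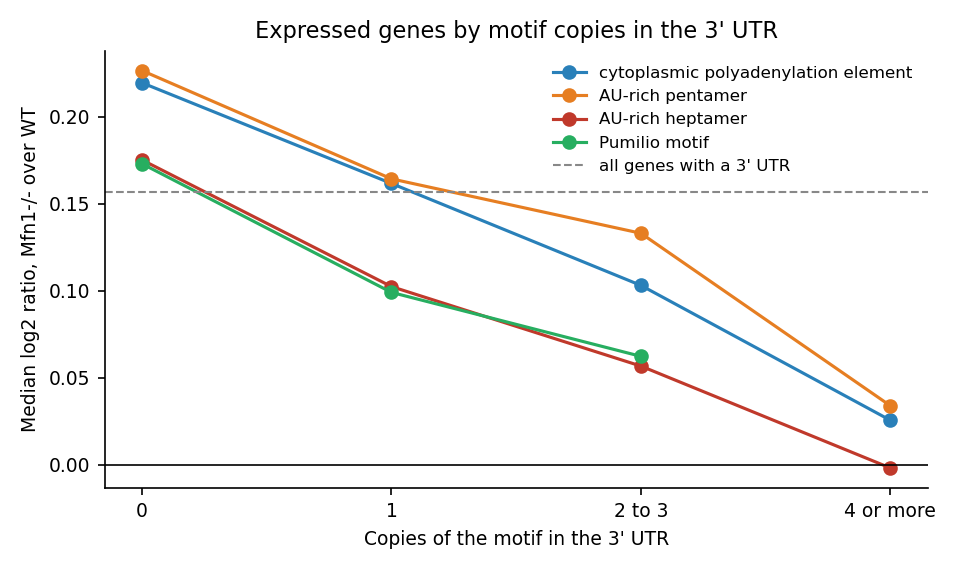
Median log2 ratio of *Mfn1*-/- over WT (y axis) of expressed genes by the number of copies of each motif in the 3' UTR (x axis), for groups of at least 20 genes, with a dashed line at the median of all 4520 genes (0.16). Each line is lower with more copies, from 0.22 to 0.03 for the polyadenylation element. The median 3' UTR length also rises along the x axis, from 341 to 2545 bases for this element.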

How the data were processed

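Reads had been trimmed (Cutadapt), quality filtered (FASTX-Toolkit) and aligned to GRCm38/mm10 (STAR) by the authors and assigned to genes, and the versions, annotation and strand setting are not given in the sources used here. The deposited signal is the authors' mean of normalized counts in each genotype, beside a total over libraries, which in 100% of genes was within 1% of the sum expected from 3 *Mfn1*-/- and 4 WT libraries. The 4 columns that hold the authors' own comparison (a p-value, FDR, ratio and fold change) were not used, and 0 columns of single libraries were left unused. Log2 ratios, the 2-fold count, medians and motif matches were computed here with Python 3.11.15, numpy 2.4.6 and pandas 2.3.3, near-identical copies (75 bases at 95% identity) with blastn 2.17.0, and the code was tested on simulated data. Of 22876 names, 21892 were found once in GENCODE M21.

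The genes and lists were chosen with earlier results of these data known. Named are the 10 genes, *Mfn1*, and of each list the genes past 2-fold with a mean of at least 1 and the 2 with the highest mean. Paralogs, markers and further listed genes were named after their values were seen. Alternatives were pseudocounts of 0.01, 1 and none, 2 other scalings, a 1.5-fold threshold and lower minimum means.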

Additional observations from a re-analysis of the deposited data

How the results depend on the processing

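The alternatives for a single gene were pseudocounts of 0.01, 1 and none, subtraction of the median of expressed genes, and division by the column sum. Each of the 10 genes kept its direction under these 5. A pseudocount added to both means cannot change a direction. The 2 scalings lowered all 10 ratios, so only the 4 higher ones could have changed direction. The nearest to 0 was *Patl2*, at 0.0020 after subtracting the median. In size, 49 of the 50 values stayed on the same side of 2-fold. The exception was *Zfp36l2* with a pseudocount of 1, at 0.90, which leaves 0 of the 10 genes past 2-fold higher. *Mfn1* was at -0.61 with that pseudocount. The counts of expressed genes past 2-fold, 339 higher and 202 lower, became 174 and 106 with a pseudocount of 1, 963 and 480 at 1.5-fold, 1002 and 586 with a minimum mean of 0.1, and 1114 and 628 with no minimum. The split was 241 higher and 283 lower after subtracting the median and 255 and 267 after division by the column sum, so the balance of higher and lower genes depends on the scaling. With a minimum mean of 0.1 the list medians changed sign for deadenylases (0.036) and for BTG/TOB adaptors (0.13). The median of the poly(A) binding list changed sign after subtracting the median (-0.048) and after division by the column sum (-0.013). The cause of these changes of sign was not tested. The motif differences kept their sign under the 5 alternatives, but the 2 scalings could hardly have changed it. Subtracting the median cancels in a difference, and division by the column sum shifts nearly all ratios alike. No paired analysis was possible because the table used holds 1 mean per genotype, and for the same reason no library could be left out.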
